A study of Homo sapiens with 9 samples.

Results

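The 10 genes *KLK2*, *KLK3*, *KLK4*, *TMPRSS2*, *FKBP5*, *NDRG1*, *SLC45A3*, *ABCC4*, *ACSL3* and *PMEPA1* are classical androgen target genes of prostate cells. They were taken by symbol from the 19984 genes of the RNA-seq table, and all 10 were found and tested in every comparison. The cells were LNCaP, a prostate cancer cell line that grows in response to androgen. Deletion clones del-4 and del-56 lack the promoter and the start of the long noncoding RNA gene *EPCART*, removed with CRISPR-Cas9, and a WT clone of the same line carries no deletion. Each clone gave 3 cultures, grown for 48 hours in the normal medium of the line. Each group was a single clone, so the effect of the deletion and differences between clones that existed for other reasons cannot be told apart. The 3 libraries of a clone are separate cultures of that clone, and p-values measure the spread between cultures. *EPCART* itself was not analysed here. The question addressed here is how each androgen target differed between the deletion clones and WT.

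Androgen acts as a steroid hormone on transcription, through androgen response elements near or far from its target genes, in which copies of a 6-base core face each other across a short spacer. At most of its targets androgen raises transcription, and at some it lowers it. In the luminal cells of the prostate its best known products are the secreted kallikrein proteases, among them prostate-specific antigen from *KLK3*, and levels of these RNAs are commonly read as a measure of androgen response.

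The reads on genes ranged from 91074556 to 118877134 per library, and values are normalized counts, that is, reads on a gene divided by the size factor of the library. The summed level of 6 luminal prostate markers, *KLK3* among them, was 245164 to 251540 in del-4, 223761 to 230018 in del-56 and 259053 to 267711 in WT, and that of 5 basal markers lay between 21.8 and 64.3. Of the basal markers only *KRT6A* was called, lower in both clones at very low counts (means of 1.66, 1.13 and 12.1 in del-4, del-56 and WT). Its log2FC was -2.73 in del-4 (limma adjusted p = 0.019) and -2.67 in del-56 (limma adjusted p = 0.014). Only 2 luminal markers were called in del-56, both lower, *FOLH1* (mean of 45949, 70462 in WT) and *KLK3* (37076, 48463.5 in WT), and 4 were not called. In del-4, *FOLH1* (55666) was among 4 called lower, while *KLK3* (57498.5) was higher. The 7 neuroendocrine markers summed to 2459 to 2614 in del-4, 1744 to 1888 in del-56 and 1763 to 1927 in WT, a sum carried by *ENO2* (means of 2356, 1619 and 1627), with 4 of the 7 at a mean under 10. *SYP* went the other way in del-4 (log2FC -0.60, limma adjusted p = 0.036). The 6 fibroblast and stromal markers summed to 1274 to 1488 in del-4, 1421 to 1569 in del-56 and 1116 to 1205 in WT, carried by *COL1A1* (means of 1253, 1258 and 991), whereas *COL3A1* was lower in del-56 (log2FC -0.86, limma adjusted p = 0.029). *LUM* was higher in del-56 (mean of 129, 29.3 in WT, log2FC 2.20, limma adjusted p = 6.4e-05) and not called in del-4. The 5 leukocyte and endothelial markers summed to 837 to 891 in del-4, 1040 to 1282 in del-56 and 1087 to 1109 in WT, with *CD3E* at 0 in all 9 libraries. The lower sum in del-4 was that of *VWF* (means of 304, 641 and 596, log2FC -0.97 in del-4, limma adjusted p = 1.5e-06). *CD68* (means of 560, 538 and 499) was not called in either clone, and 3 of the 5 had a mean under 10. The part of these marker differences in the results was not tested. In bulk RNA, fewer cells with a transcript and less of it per cell cannot be told apart.

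The kallikrein promoters are shown first because *KLK3* and *KLK2* are near-identical at an androgen response element, while their RNAs took different directions in del-4. The windows run from 250 bases before to 50 bases after the RefSeq transcript start (GRCh38.p14). That of *KLK3* is chr19:50854665-50854964 on the plus strand, that of *KLK2* chr19:50873189-50873488 on the plus strand and that of *KLK4* chr19:50911346-50911645 on the minus strand. Capitals mark the 15-base element of *KLK3* and its counterpart in *KLK2*.
*KLK3*: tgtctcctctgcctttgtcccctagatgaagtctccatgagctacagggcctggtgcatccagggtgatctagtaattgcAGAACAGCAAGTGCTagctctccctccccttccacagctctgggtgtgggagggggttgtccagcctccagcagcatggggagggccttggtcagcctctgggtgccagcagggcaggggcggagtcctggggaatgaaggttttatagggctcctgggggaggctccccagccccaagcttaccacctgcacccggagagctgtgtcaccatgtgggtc
*KLK2*: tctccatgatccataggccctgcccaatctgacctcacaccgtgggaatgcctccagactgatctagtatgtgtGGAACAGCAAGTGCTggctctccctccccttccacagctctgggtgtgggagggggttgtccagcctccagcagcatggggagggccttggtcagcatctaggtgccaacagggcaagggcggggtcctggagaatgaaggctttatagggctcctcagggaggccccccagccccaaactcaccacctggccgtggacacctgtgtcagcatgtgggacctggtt
*KLK4*: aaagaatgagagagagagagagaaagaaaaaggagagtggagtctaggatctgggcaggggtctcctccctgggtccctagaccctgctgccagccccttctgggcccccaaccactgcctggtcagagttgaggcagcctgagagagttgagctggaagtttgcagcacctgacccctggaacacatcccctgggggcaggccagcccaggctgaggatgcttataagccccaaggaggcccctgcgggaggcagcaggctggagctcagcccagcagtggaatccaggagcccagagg
The element begins at position -170 from the start in *KLK3* and at -176 in *KLK2*, and differs at a single base, A1G, counted from the first base of the element. Within 1 mismatch the element was found in 7 of 35116 RefSeq windows of this length (0.0199%), searched on both strands. The best match in the *KLK4* window agreed at 9 of 15 bases and is not marked. Over the whole window *KLK3* and *KLK2* were identical at 239 of 291 aligned positions (82.1%), against 54.2% for *KLK3* and *KLK4* and 55.6% for *KLK2* and *KLK4*. The 6-base core, searched as AGAACA on both strands (TGTTCT on the other), occurred in windows of *KLK3*, *FKBP5* and *PMEPA1*, which are 3 of the 8 genes with a window in the RefSeq table. These genes have 13 windows, some more than 1 each, and 4 of the 13 hold the core. Of all windows 14.8% hold it, so a match is a description of the letters and not evidence of binding.

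Compared with WT, 5 of the 10 genes rose and 2 fell in del-4, and 6 rose and 2 fell in del-56 (limma, adjusted p under 0.05 over all genes tested). *KLK4*, *FKBP5*, *NDRG1* and *PMEPA1* rose in both clones and *KLK2* fell in both. *KLK3* rose in del-4 and fell in del-56, *TMPRSS2* fell in del-4 and rose in del-56, *ABCC4* rose in del-56, and *SLC45A3* and *ACSL3* passed in neither clone. Of all genes tested, 20.5% were higher and 20.2% lower in del-4, and 19.2% were higher and 20.5% lower in del-56. Highly expressed genes were called more often than this. Among the 5167 genes whose mean count reached 5000, as it did for all 10 targets, the share called was 55.3% (del-4) and 54.0% (del-56). The 7 and 8 of 10 targets called stand beside those shares.

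None of the 10 genes passed with a log2 fold change above 1 or below -1 in either clone, as 4.83% of all genes did in del-4 and 4.87% in del-56. Their log2 fold changes ran from -0.71 to 0.57 in del-4 and from -0.53 to 0.72 in del-56. Their median log2FC was 0.08 and 0.13, where the median of all genes was -0.003 and -0.001. The median size of the change without its sign was 0.31 and 0.25 for the targets and 0.19 in both clones for all genes. The libraries of the clone and of WT did not overlap for 7 (del-4) and 5 (del-56) of the 10 targets, where 49.5% and 48.7% of all genes did not overlap. The same 3 WT libraries serve both comparisons.

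The deletion clones were also compared with each other, which does not use WT. Relative to del-56, del-4 had higher levels of 2 of the 10 genes and lower levels of 4 (limma), where 10.9% of all genes tested were higher and 9.0% lower. Among the 5167 genes with a mean count of at least 5000, 24.9% were called in either direction. None passed with a log2 fold change above 1 or below -1, against 2.93% of all genes. Libraries did not overlap for 5 of the 10 genes and for 34.7% of all genes. Of the 17191 genes tested against WT in both clones, 0.774% rose in del-4 but fell in del-56, the pattern of *KLK3*, and 0.337% did the reverse, the pattern of *TMPRSS2*. Higher in both was called for 13.2% and lower in both for 14%.

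**Figure D1:**
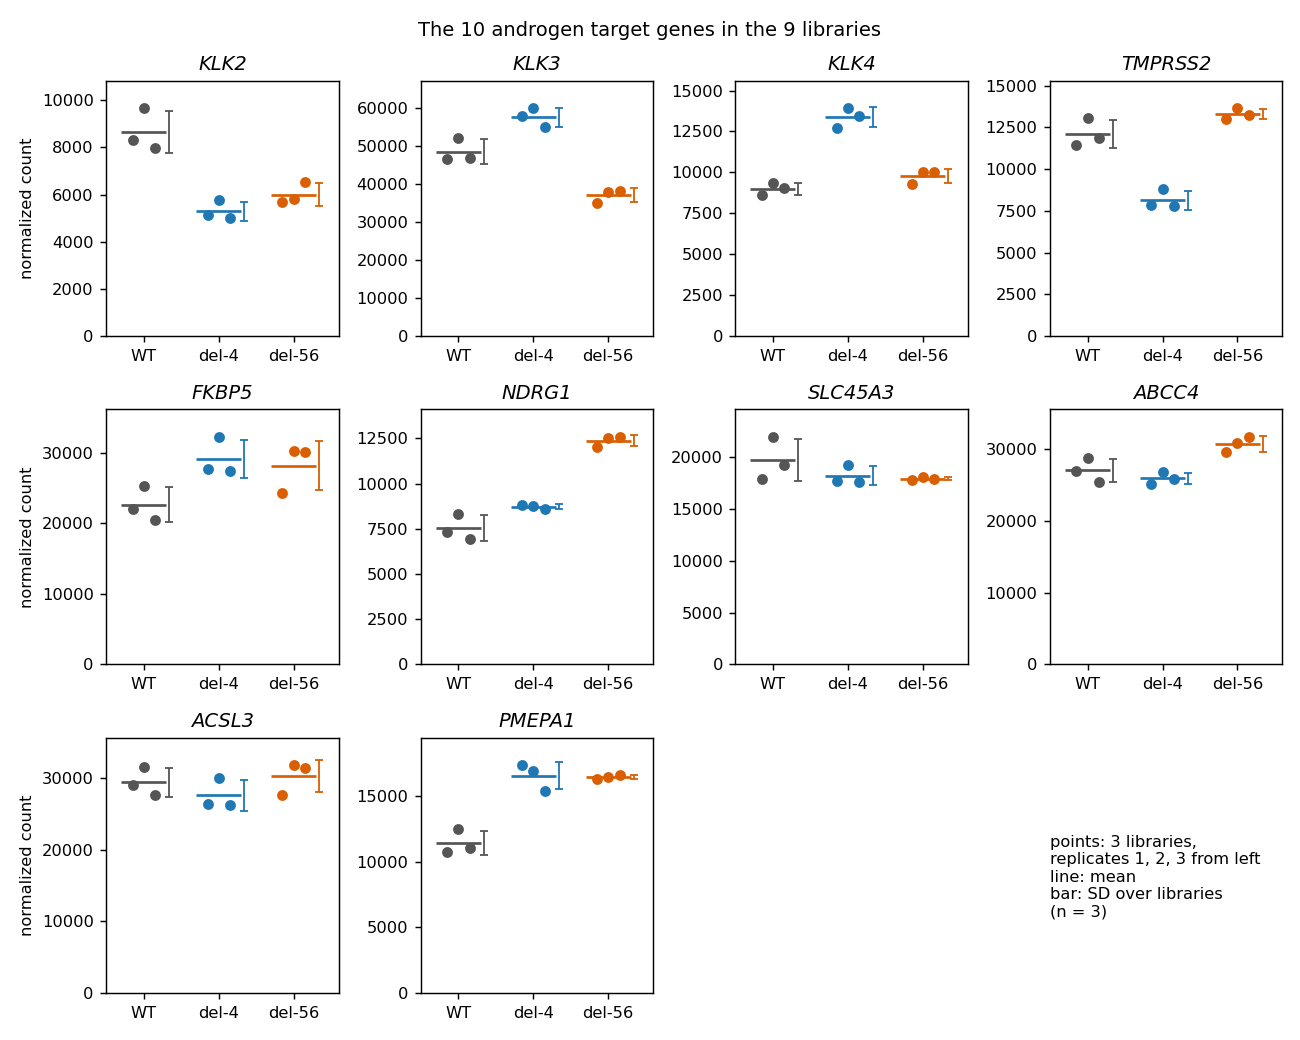
Normalized counts (linear axes from 0) of the 10 target genes in each of the 9 libraries. Points are the 3 libraries of a clone in the order of their replicate numbers, lines are means and bars are SDs (n = 3). *KLK3* separates all 3 clones, *KLK2* lies lower in both deletion clones than in WT, and *TMPRSS2* is lowest in del-4.

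*KLK3* encodes prostate-specific antigen, the protease measured in blood to follow prostate cancer. Its gene lies at chr19:50854915-50860764 on the plus strand (GENCODE 44, GRCh38). *KLK3* had normalized counts of 57732, 59859.6 and 54904 in del-4, 35098, 37905 and 38225 in del-56, and 46505, 52169 and 46717 in WT. The 3 clones did not overlap, with del-4 on top and del-56 at the bottom. Compared to WT, *KLK3* had a log2FC (log2 fold change) of 0.25 in del-4 (SE 0.046, adjusted p = 0.00029) and -0.39 in del-56 (SE 0.049, adjusted p = 1.1e-05). For *KLK3*, the log2FC of del-4 over del-56 was 0.63 (SE 0.043, adjusted p = 5.3e-09), that is, 1.55-fold higher in del-4. No library decided these calls, since each held in all 6 fits that left out 1 library.

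*KLK2* encodes kallikrein 2, which can activate the prostate-specific antigen precursor, and its gene is the next kallikrein protease gene along (chr19:50861568-50880567, plus strand). It is the target with the lowest counts in the deletion clones. *KLK2* had normalized counts of 5122, 5749 and 5012 in del-4, 5662, 5802 and 6536 in del-56, and 8319.5, 9654 and 7993 in WT. All 6 deletion libraries lay below all WT libraries. Compared to WT, *KLK2* had a log2FC of -0.71 in del-4 (SE 0.061, adjusted p = 4.8e-08) and -0.53 in del-56 (SE 0.065, adjusted p = 8.2e-06), a level 1.63-fold and 1.44-fold lower than in WT. The deletion clones overlapped each other, and the log2FC of del-4 over del-56 was -0.18 (SE 0.058, adjusted p = 0.037). That call was lost without del-4 replicate 1 (adjusted p = 0.15), del-4 replicate 3 (0.19), or replicates 2 (0.052) or 3 (0.22) of del-56. It was also lost with no filter on low counts (adjusted p = 0.051) and in 1 fit of all 9 libraries (adjusted p = 0.063).

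*KLK4* encodes a further secreted kallikrein protease, on the opposite strand at chr19:50906351-50911395. *KLK4* had normalized counts of 12708, 13914 and 13459.5 in del-4, 9287, 10005 and 10048 in del-56, and 8633, 9365 and 9020.2 in WT. Del-4 lay above the other clones, and del-56 overlapped WT. Compared to WT, *KLK4* had a log2FC of 0.57 in del-4 (SE 0.042, adjusted p = 5.1e-09) and 0.12 in del-56 (SE 0.044, adjusted p = 0.04), with a log2FC of 0.45 for del-4 over del-56 (SE 0.043, adjusted p = 5.7e-07). The call in del-56 was lost without its replicate 2 (adjusted p = 0.14), its replicate 3 (0.16), WT replicate 1 (0.15) or WT replicate 3 (0.098). It was also lost when libraries were rescaled to the same total (adjusted p = 0.14).

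Ratios within a library do not depend on its size factor. The ratio of *KLK3* to *KLK2* reads ran from 10.4 to 11.3 in del-4, from 5.85 to 6.53 in del-56 and from 5.40 to 5.84 in WT. No del-4 library came near either other clone, while the lowest del-56 library nearly touched the highest WT library. The ratio of *KLK4* to *KLK2* ran from 2.42 to 2.69 in del-4, from 1.54 to 1.72 in del-56 and from 0.970 to 1.13 in WT. That of *KLK3* to *KLK4* ran from 4.08 to 4.54 in del-4, from 3.78 to 3.80 in del-56 and from 5.18 to 5.57 in WT. All 3 clones were apart in each ratio. Ratios are given as a description with no test. *KLK2* and *KLK3* transcripts share 11 of the 3582 distinct 50-base stretches of *KLK2* (0.307%) and neither shares any with *KLK4*, so few reads can fit more than 1 of them.

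**Figure D2:**
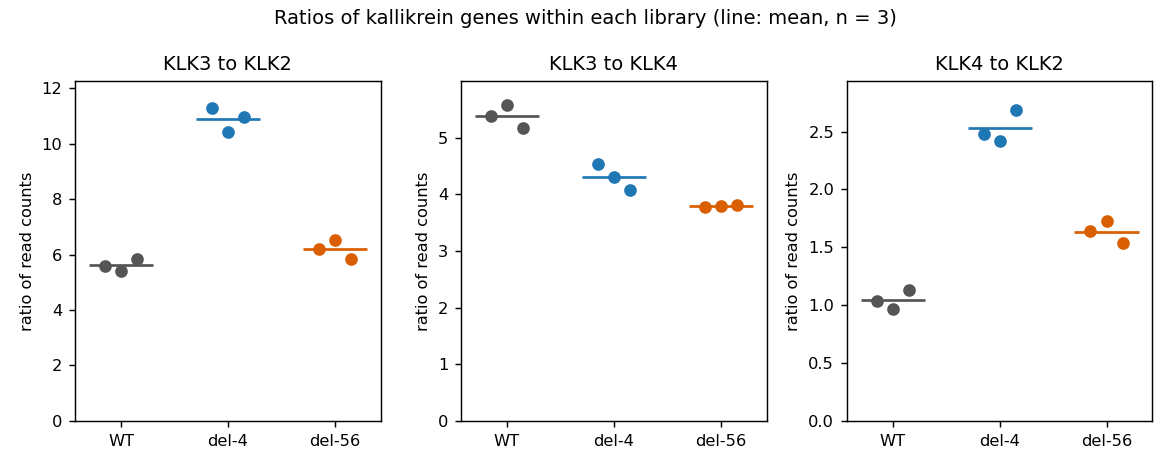
Ratios of the read counts of kallikrein genes within each library (linear axes from 0; points are libraries, lines are means of 3). *KLK3* to *KLK2* is highest in del-4 at 10.4 to 11.3, *KLK3* to *KLK4* is highest in WT at 5.18 to 5.57, and *KLK4* to *KLK2* differs between all 3 clones.

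The remaining kallikrein genes of the cluster on chromosome 19 were expressed at a lower level. Of the 15 cluster genes, 8 were tested in del-4 and 9 in del-56, and no others than *KLK2*, *KLK3* and *KLK4* were called in either comparison. *KLK15* had a normalized count of 232 to 260.2 in del-4, 267 to 312 in del-56 and 241 to 288 in WT. The mean over the 9 libraries was 12.4 for *KLK14*, 10.4 for *KLK1* and at most 1.56 for the rest. The log2FC of *KLK15* against WT did not pass in del-4 (-0.10, adjusted p = 0.62) or del-56 (0.11, adjusted p = 0.6).

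*TMPRSS2* encodes a membrane-bound serine protease, and its androgen-driven promoter is the one fused to ETS genes in many prostate cancers. The gene lies at chr21:41464300-41531116 on the minus strand. *TMPRSS2* had normalized counts of 7848, 8801 and 7786 in del-4, 13005, 13641 and 13263 in del-56, and 11457, 13062 and 11852 in WT. Del-4 lay below both other clones, and del-56 overlapped WT at the top. Compared to WT, *TMPRSS2* had a log2FC of -0.57 in del-4 (SE 0.051, adjusted p = 7.2e-08) and 0.14 in del-56 (SE 0.046, adjusted p = 0.027). For *TMPRSS2*, the log2FC of del-4 over del-56 was -0.71 (SE 0.046, adjusted p = 2.8e-09), 1.64-fold lower in del-4. The rise in del-56 did not pass without its replicate 2 (adjusted p = 0.1), its replicate 3 (0.075), WT replicate 1 (0.13) or WT replicate 3 (0.11), and when libraries were rescaled to the same total (0.09).

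The gene span of *TMPRSS2* overlaps that of *MX1*, an interferon-induced gene on the opposite strand (chr21:41420020-41470071). In GENCODE 44 the spans share 5772 bases. The ratio of *MX1* to *TMPRSS2* counts was 0.551 to 0.577 in all 9 libraries, although the counts of both changed between clones. How far the counts of either gene hold reads of the other was not tested. The libraries were strand-specific, but the sources used here do not say whether the counting used strand, or exons or whole spans. Without strand, reads from the shared stretch could not be told apart. Counted over exons, that stretch is 562 of the 17984 exon bases of *MX1*, and over whole spans it is the 5772 bases.

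*FKBP5* encodes an immunophilin co-chaperone of steroid receptors and is also induced through the glucocorticoid receptor (chr6:35573585-35728583, minus strand). *FKBP5* had normalized counts of 27623, 32234 and 27360 in del-4, 24213, 30251 and 30037 in del-56, and 22076, 25290.5 and 20459 in WT. Del-4 lay above WT, and the lowest del-56 library lay within the WT range. Compared to WT, *FKBP5* had a log2FC of 0.36 in del-4 (SE 0.065, adjusted p = 0.00019) and 0.32 in del-56 (SE 0.078, adjusted p = 0.0041). For *FKBP5*, the log2FC of del-4 over del-56 was 0.05, with a 95% confidence interval of -0.10 to 0.20 (adjusted p = 0.7).

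*PMEPA1* encodes a membrane protein that dampens TGF-beta signalling and binds the ubiquitin ligase NEDD4 (chr20:57648392-57711536, minus strand). *PMEPA1* had normalized counts of 17329, 16903 and 15404 in del-4, 16315, 16462 and 16606 in del-56, and 10748, 12449.8 and 11014 in WT. All 6 deletion libraries lay above all WT libraries. Compared to WT, *PMEPA1* had a log2FC of 0.54 in del-4 (SE 0.052, adjusted p = 1.8e-07) and 0.53 in del-56 (SE 0.048, adjusted p = 2.9e-07), 1.45-fold in each. For *PMEPA1*, the log2FC of del-4 over del-56 was 0.01, with a 95% confidence interval of -0.08 to 0.09 (adjusted p = 0.94).

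*NDRG1* encodes a stress-responsive cytoplasmic protein that is induced by androgen, hypoxia and differentiation (chr8:133237175-133302022, minus strand). *NDRG1* had normalized counts of 8829, 8765 and 8592 in del-4, 12031, 12505 and 12592 in del-56, and 7333, 8326 and 6959.6 in WT. The 3 clones did not overlap, and del-56 stood furthest from WT. Compared to WT, *NDRG1* had a log2FC of 0.22 in del-4 (SE 0.051, adjusted p = 0.0024) and 0.72 in del-56 (SE 0.054, adjusted p = 3.5e-08), the latter 1.65-fold. For *NDRG1*, the log2FC of del-4 over del-56 was -0.50 (SE 0.037, adjusted p = 1.7e-08).

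*ABCC4* encodes MRP4, an ATP-driven exporter of organic anions and cyclic nucleotides (chr13:95019835-95301475, minus strand). *ABCC4* had normalized counts of 25113, 26736 and 25741 in del-4, 29541, 30747 and 31649 in del-56, and 26918, 28659 and 25396 in WT. Del-56 lay above both other clones, and del-4 overlapped WT. Compared to WT, *ABCC4* had a log2FC of -0.06 in del-4 (95% confidence interval -0.15 to 0.03, adjusted p = 0.28) and 0.18 in del-56 (SE 0.045, adjusted p = 0.0037). For *ABCC4*, the log2FC of del-4 over del-56 was -0.24 (SE 0.038, adjusted p = 0.00016). In del-4 the gene was called lower when libraries were rescaled to the same total (log2FC -0.13, adjusted p = 0.019).

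*SLC45A3* encodes prostein, a prostate-restricted transporter-like membrane protein (chr1:205657851-205680509, minus strand). *SLC45A3* had normalized counts of 17708, 19246 and 17626 in del-4, 17777, 18060.3 and 17916 in del-56, and 17922, 21942 and 19241 in WT. Both deletion clones overlapped WT, and WT replicate 2 was the highest library. Compared to WT, *SLC45A3* had a log2FC of -0.11 in del-4 (95% confidence interval -0.23 to 0.01, adjusted p = 0.13) and -0.13 in del-56 (-0.25 to -0.01, adjusted p = 0.069). Without WT replicate 1 both passed, at -0.18 (adjusted p = 0.018) and -0.20 (adjusted p = 0.0075). The value in del-56 also passed after rescaling to the same total (-0.16, limma adjusted p = 0.035) and, narrowly, with DESeq2 (-0.14).

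*ACSL3* encodes an acyl-CoA synthetase that activates long-chain fatty acids and takes part in lipid droplet formation (chr2:222860942-222944639, plus strand). *ACSL3* had normalized counts of 26403, 29989 and 26242 in del-4, 27622, 31745 and 31376 in del-56, and 28982, 31566 and 27619.7 in WT. The 3 clones overlapped. Compared to WT, *ACSL3* had a log2FC of -0.09 in del-4 (95% confidence interval -0.20 to 0.02, adjusted p = 0.16) and 0.04 in del-56 (-0.08 to 0.16, adjusted p = 0.6). Without del-4 replicate 2, the value in del-4 was -0.16 (adjusted p = 0.019). For *ACSL3*, the log2FC of del-4 over del-56 was -0.13 (adjusted p = 0.096), and it passed without del-4 replicate 2 (-0.20, adjusted p = 0.017) or del-56 replicate 1 (-0.20, adjusted p = 0.0086). It also passed after rescaling to the same total (-0.18, adjusted p = 0.033), after quantile normalization (-0.19, adjusted p = 0.044) and with the replicate block (-0.13, adjusted p = 0.035).

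To show the level of its surroundings, each target is set beside the median of the 20 nearest tested genes that are not targets. For the kallikrein genes this median was 0.04 (del-4) and -0.07 (del-56), closer to 0 than the value of any of the 3 genes. For *PMEPA1* it was 0.15 and 0.20, with 17 and 19 of 20 neighbours on the same side of 0 as the gene, and the gene's change was 0.54 and 0.53. For *TMPRSS2* in del-4 it was -0.24 against -0.57 for the gene. For *NDRG1* in del-56 it was 0.18 against 0.72. Around *ABCC4* it was -0.28 (del-4) and -0.18 (del-56), and in del-4 19 of 20 neighbours had a larger absolute log2FC than the gene. With the 10 nearest genes these medians became -0.17 and -0.03 for *ABCC4*, -0.01 for *TMPRSS2* in del-4 and 0.30 for *NDRG1* in del-56. For the kallikrein genes they became -0.06 (del-4) and -0.23 (del-56), and for *PMEPA1* 0.19 and 0.28. The part of the neighbourhood in each gene's value was not tested.

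**Figure D3:**
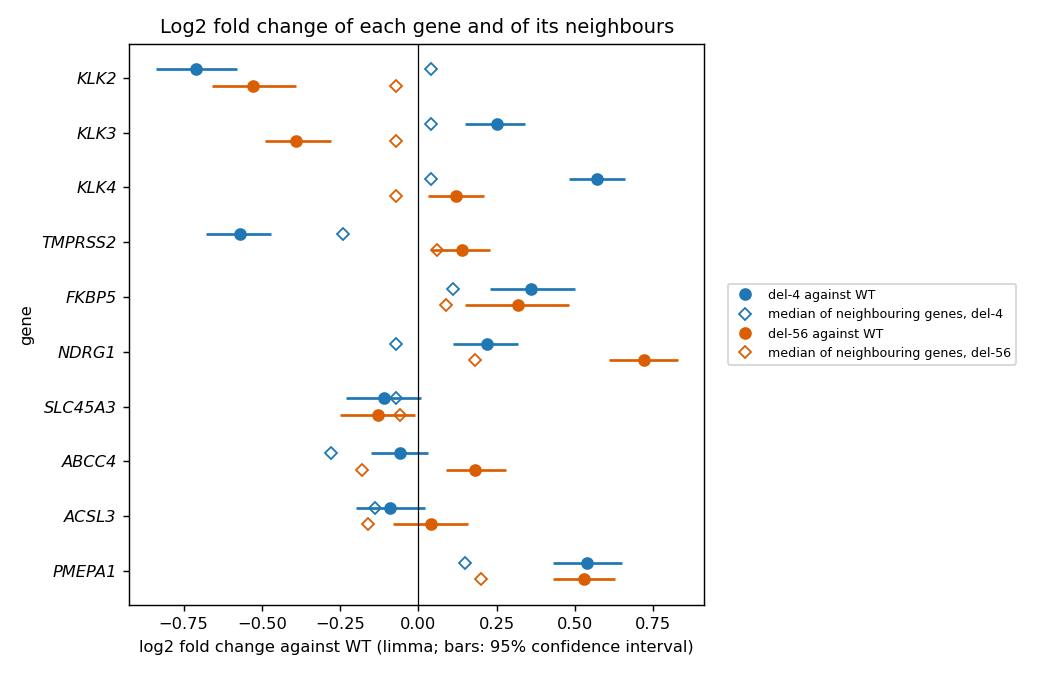
Log2 fold change against WT of each target in del-4 and del-56 (filled circles, limma, bars are 95% confidence intervals), with the median of its nearest tested neighbours (open diamonds). *KLK3* and *TMPRSS2* take opposite sides of 0 in the 2 deletion clones, and *PMEPA1* lies at 0.54 and 0.53, above the median of its neighbours.

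Compared per kilobase of the canonical transcript, *KLK3* was far above the rest in WT, with 33104 ± 2193 normalized counts per kilobase (SD, n = 3). *KLK4* (6360.2), *FKBP5* (6029), *SLC45A3* (5810.1) and *ACSL3* (5269.7) followed. In this run each gene's libraries overlapped those of the next gene, so their order is not separated by the spread. *ABCC4* (4609.9), *TMPRSS2* (3514), *KLK2* (3059.5), *NDRG1* (2492) and *PMEPA1* (2302) came after them. Within this run *TMPRSS2* overlapped *KLK2*, and *NDRG1* overlapped *PMEPA1*. *KLK2* was last of the 10 in both deletion clones, at 1871 in del-4 and 2121 in del-56, and eighth in WT. With the length of all annotated exons, *SLC45A3* moved up to the second place in WT and *NDRG1* came last, while *KLK3* stayed first in every clone. Both lengths assume counting over exons. The sources used here do not say whether exons or whole spans were counted, and for whole spans these orders would not apply.

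Within a clone the targets were often highest in the same culture. WT replicate 2 was the highest WT library for 10 of the 10 genes and for 26 of 35 further androgen-induced genes, where it was the highest for 32.7% of all 15373 genes with a mean of at least 10. Del-4 replicate 2 was the highest del-4 library for 8 of the 10 and for 21 of the 35, where it was the highest for 33.8% of all genes. The del-56 libraries were the highest for 11, 13 and 11 of the 35, with del-56 replicate 1 the lowest del-56 library for 10 of the 10, where it was the lowest for 37.2% of all genes. The median deviation of the 10 genes from their clone's mean was 0.12 on the log2 scale in WT replicate 2 and -0.063 in del-56 replicate 1. Without WT replicate 2, the calls of *KLK2*, *KLK3*, *KLK4*, *TMPRSS2*, *FKBP5*, *NDRG1*, *ABCC4* and *PMEPA1* against WT all held. The 10 genes together took 0.173% to 0.199% of the reads of a library.

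**Figure D4:**
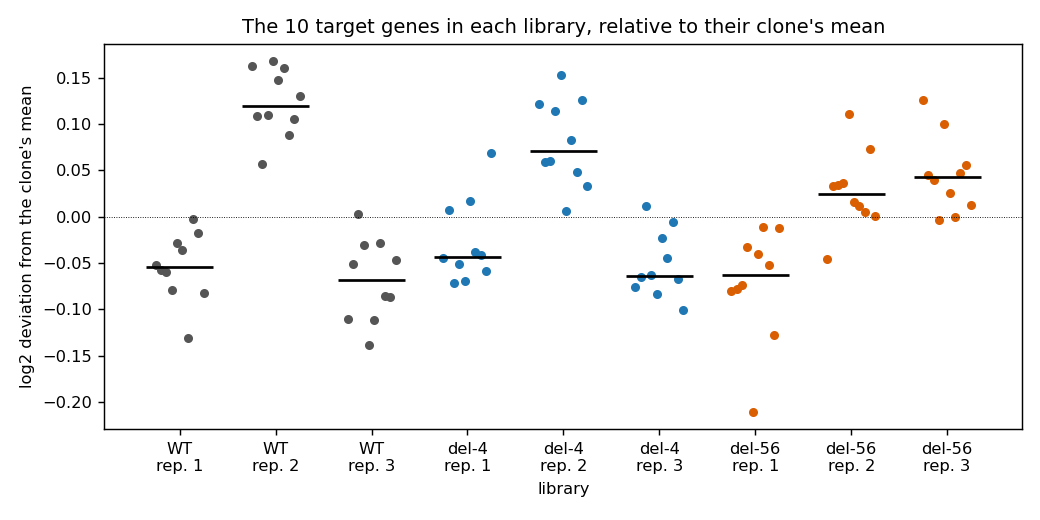
Log2 deviation of each of the 10 targets from the mean of its clone, in each library (points are genes in fixed order, lines are medians). All points of WT replicate 2 lie above 0 and all points of del-56 replicate 1 lie below 0.

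Of 35 further androgen-induced genes, del-4 had 10 higher and 12 lower, and del-56 had 13 higher and 15 lower. Beside this list and those that follow stand the shares of all genes tested. These were 20.5% higher and 20.2% lower in del-4, and 19.2% higher and 20.5% lower in del-56. Among genes with a mean count of at least 5000, 55.3% and 54.0% were called in either direction. The 35 further androgen-induced genes themselves had a median log2FC of -0.08 (del-4) and 0.09 (del-56). The genes with the largest changes called in both clones included *TRPM8*, a cation channel, at 1.02 and 1.32, and *ADAM7*, at 1.01 and 1.93. *FADS1*, a fatty acid desaturase, was at -1.16 in del-4 and -1.03 in del-56. As among the 10 targets, both directions occurred in each clone.

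Of 6 androgen-repressed genes, del-4 had 4 lower and none higher, and del-56 had 5 lower and none higher, where 20.2% and 20.5% of all genes were lower. The list is short, and no test was made over it. The list had a median log2FC of -0.44 and -0.60. *ACKR3*, a chemokine scavenger receptor, was at -1.14 and -0.62, and *UGT2B15*, which inactivates androgen by glucuronidation and has close paralogs that can share its reads, at -0.53 and -0.58. Its paralog *UGT2B17* is also counted in this list and was lower in both clones, at -0.35 and -0.50. How far these paralogs share reads was not tested. *OPRK1*, an opioid receptor gene of low count, fell from 297 to 385 in WT to 5.76 to 15.9 in del-4 and 26.1 to 85.9 in del-56, at -4.98 and -2.98.

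Of 20 chaperones and transcriptional coregulators, del-4 had 8 higher and 6 lower, and del-56 had 7 higher and 5 lower. *HSP90AA1*, a chaperone of steroid receptors among other clients, was at -0.49 and -0.41. Its paralog *HSP90AB1* went the other way, at 0.19 and 0.32 (limma adjusted p = 0.005 and 0.00012). *KDM1A*, a histone demethylase, was at 0.47 and 0.63, and *STUB1*, a ubiquitin ligase that acts with chaperones, at -0.51 and -0.67.

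Lists for other known inducers of single targets also held genes called in both directions, in uneven numbers for some lists. Of 10 glucocorticoid-response genes, *FKBP5* among them, del-4 had 3 higher and 2 lower, and del-56 had 3 of each. *TSC22D3*, a glucocorticoid-induced leucine zipper gene, was at -0.47 and -0.17. Of 13 hypoxia-response genes, with *NDRG1*, del-4 had 4 higher and 2 lower, and del-56 had 7 higher and 2 lower. *SLC2A1*, a glucose transporter, was at 0.32 and 0.35, and *CA12*, a carbonic anhydrase, at -0.89 and -0.32. Of 12 TGF-beta genes tested, with *PMEPA1*, del-4 had 7 higher and 1 lower, and del-56 had 5 higher and 2 lower. The receptor gene *TGFBR2* had low counts, from 15.5 to 49.0 in WT, and was at 2.02 and 1.36.

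**Figure D5:**
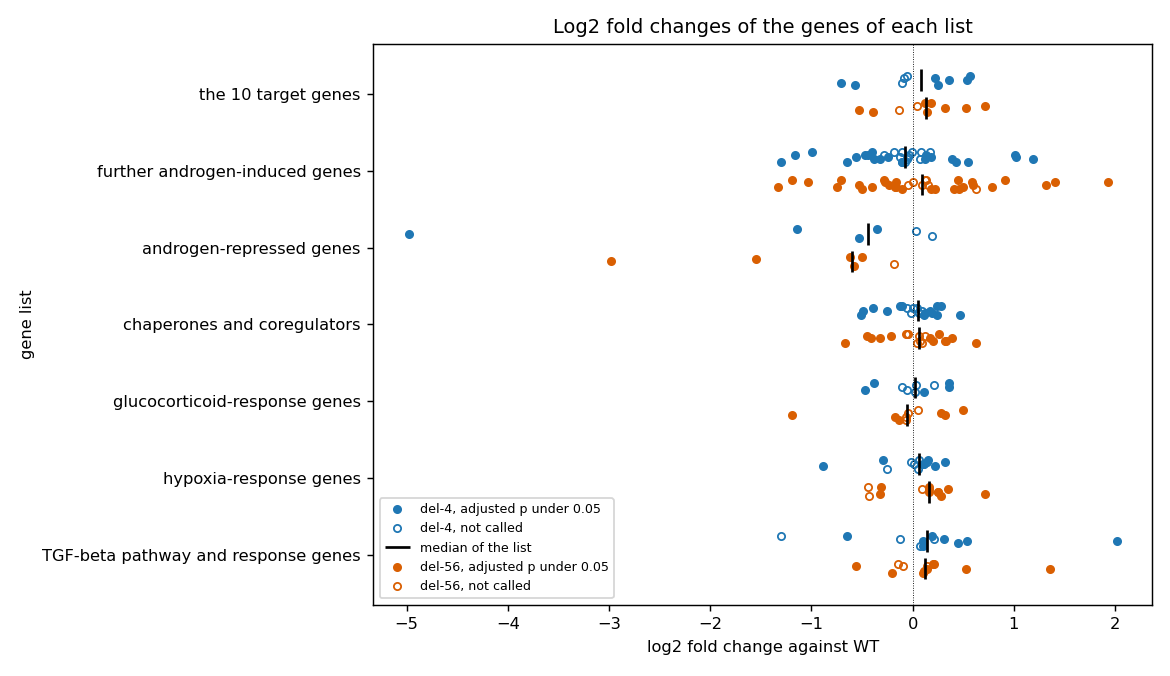
Log2 fold change against WT of each tested gene of the 10 targets and 6 further lists, in del-4 and del-56. Filled points passed the test at an adjusted p under 0.05, open points did not, and vertical strokes are list medians, which lie between -0.60 and 0.16.

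For each target the genes with the most similar level over the 9 libraries were found by the root mean square distance of centred log2 values, over 15363 genes. The nearest to *TMPRSS2* was the overlapping *MX1* (distance 0.025), followed by *APLN* (0.061). The nearest to *KLK2* was *MLPH* (0.075), to *KLK3* *UBE2E1* (0.052), to *KLK4* *GAGE2A* (0.071) and to *NDRG1* *MLLT3* (0.043). The nearest to *PMEPA1* was *CPM* (0.057), to *FKBP5* *NAPB* (0.086) and to *ABCC4* *AZGP1* (0.038). The nearest to *SLC45A3* was *XYLT2* (0.043) and to *ACSL3* *GTF2E1* (0.049). Among the targets themselves the closest pair was *ABCC4* and *ACSL3* (0.078) and the most distant *KLK3* and *TMPRSS2* (0.554). *KLK2* and *KLK3*, next to each other on the chromosome, were 0.424 apart. The 3 libraries of a clone share their clone, so these 9 points are not independent.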

How the data were processed

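Strand-specific polyA RNA-seq libraries of 3 cultures each of del-4, del-56 and WT LNCaP clones were used. STAR alignment to GRCh38 and BEDTools 2.27.1 multicov counting over GENCODE protein-coding transcripts were done by the authors. The deposited signal values are normalized counts, that is, whole reads divided by a size factor per library. Dividing out the step of each library gave whole reads for 100.0% of values (within 1e-06 reads). Of the gene identifiers, 19905 matched GENCODE 44 and 79 did not. Columns of other samples were not present.

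Groups follow the sample titles. The WT columns carry an additional number that the labels do not explain, and were matched to the WT samples by replicate number. The 3 pairs of clones were compared by limma 3.58.1 in R 4.3.3, with a variance trend, on log2(normalized count + 1). Fold changes are on this scale. A gene was tested if its mean over the 6 libraries in a fit reached 1, with Benjamini-Hochberg adjustment over all of them. Genes outside the 10 targets are named where both clones passed, up to 3 per list, by the largest mean change, if their mean count reached 10. Some genes that met this rule are not named. Genes of the marker lists were named outside it, to show what lay behind a sum or which genes were called. *KLK15*, *MX1*, *HSP90AB1* and *UGT2B17* were named after their values were seen. Alternatives were pseudocounts of 0.5 and 5, other filters, quantile normalization, rescaling to the same total, a single fit of 9 libraries, the replicate block, edgeR 4.0.16 and DESeq2 1.42.0 on the recovered reads, and leaving out each library. Steps were tested on simulated data. Promoter windows are from RefSeq. Some genes of the lists are not reported here and were left out of the list counts and sums. Members and lists were chosen with earlier results of these data known.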

Additional observations from a re-analysis of the deposited data

Results flagged for a closer look

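The deletion clones differed from each other for 6 of the 10 targets in the direct test of del-4 against del-56 (limma, Benjamini-Hochberg adjusted over 17447 genes), which is what drew attention to them. Of all genes tested, 10.9% were higher and 9.0% lower in del-4, and 24.9% were called among the 5167 with a mean count of at least 5000. The log2 fold change of del-4 over del-56 was -0.71 for *TMPRSS2* (adjusted p = 2.8e-09), 0.63 for *KLK3* (adjusted p = 5.3e-09), -0.50 for *NDRG1* (adjusted p = 1.7e-08) and 0.45 for *KLK4* (adjusted p = 5.7e-07). It was -0.24 for *ABCC4* (adjusted p = 0.00016) and -0.18 for *KLK2* (adjusted p = 0.037). For *KLK2* the libraries overlapped and the call was lost in 4 of 6 fits that left out 1 library. For *KLK3*, *KLK4*, *TMPRSS2*, *NDRG1* and *ABCC4* the libraries of the deletion clones did not overlap, as for 34.7% of all genes, and the call held in all 6 such fits. Without strand, reads from the stretch that *TMPRSS2* and *MX1* share could not be told apart.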

How the results depend on the processing

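Outside leaving out libraries, 278 of 300 values for the targets kept their direction and their side of the threshold, 5 lost their call, 13 gained one and 4 changed sign. The count of targets lower in del-4 than in WT was 2, and became 5 after rescaling to the same total and 5 after quantile normalization, with *SLC45A3*, *ABCC4* and *ACSL3* gained. Rescaling moved the median of all genes by -0.069 in del-4. With the replicate block that count was 4, *SLC45A3* and *ACSL3* gained. Same-numbered libraries deviated together only weakly, if at all (correlations -0.053 to 0.063 over 15373 genes). In del-4 against WT and del-4 against del-56, each library correlated best with its own number. Whether the numbers pair the libraries is therefore left unsettled, and the main fits used no block. The block gave 7038 genes called in del-4 (7082 without it), 6035 in del-56 (6938 without it) and 3393 between the deletion clones (3469 without it), and *KLK4* in del-56 lost its call (adjusted p = 0.051). Between the deletion clones, where neither was called, *SLC45A3* changed sign to -0.019 and *PMEPA1* to -0.035 after rescaling, and to -0.010 and -0.028 after quantile normalization.

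With each library left out in turn, the genes called numbered 5814 to 6669 in del-4, 5706 to 6941 in del-56 and 2268 to 3537 between the deletion clones. The last count was 3469 with all libraries and 2268 without del-4 replicate 3. Targets called higher numbered 5 in del-4, 4 to 6 in del-56 and 2 between the clones, and those lower 2 to 3, 2 to 3 and 3 to 5. Of 180 such values 156 were unchanged in call and direction, 12 lost a call, 5 gained one and 7 changed sign, none of them called: *ACSL3* in del-56 (-0.003 to 0.11), and between the clones *PMEPA1* (-0.029 to 0.056), *FKBP5* (-0.056 to 0.10) and *SLC45A3* (-0.020 to 0.043). Each clone is represented by 3 cultures, and every target had at least 5012 counts in every library. Intervals cover that spread only.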
